A study of Mus musculus with 2 samples.

Results

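The genes described here are *Acod1*, *Nos2*, *Gch1*, *Ass1*, *Ch25h*, *Cybb*, *Cyba*, *Ncf1* and *Ncf4*, enzymes and oxidase subunits with which macrophages make itaconate, nitric oxide, an oxysterol and superoxide. They are 9 of the 20655 genes that could be named on the array, and they were chosen by name, with the array values already known, so their levels are a description and carry no test. All 12 of their probes were read on both arrays, and each of the 9 genes was well above background in both cultures. RAW264.7 is an established macrophage line from ascites of an Abelson murine leukemia virus-induced tumor of an adult male BALB/c mouse, and IR-61 is a small fluorescent molecule studied for its accumulation in macrophage mitochondria. One group was a single culture given vehicle, the other a single culture given IR-61 (10 μM, a dose stated in the study's text and not in the sample labels). Both were kept for 24 h in DMEM with serum, and no other stimulus is named. Total RNA of each culture was labelled with Cy3 and read on 1 Agilent single-colour mouse array, so there is no replicate culture, no test between the conditions and no p-value.

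Activated macrophages rebuild parts of their metabolism into weapons and signals. *Acod1* encodes the mitochondrial enzyme that turns cis-aconitate of the citric acid cycle into itaconate, which inhibits succinate dehydrogenase. *Nos2* encodes the inducible nitric oxide synthase, which makes nitric oxide from arginine with tetrahydrobiopterin as a cofactor. *Gch1* encodes the first enzyme of tetrahydrobiopterin synthesis, and *Ass1* encodes an enzyme that regenerates arginine from citrulline. *Ch25h* encodes cholesterol 25-hydroxylase, which makes 25-hydroxycholesterol. The phagocyte NADPH oxidase makes superoxide with a membrane core of gp91phox (*Cybb*) and p22phox (*Cyba*), and its cytosolic subunits include p47phox (*Ncf1*) and p40phox (*Ncf4*).

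The level of a probe is its processed signal, in intensity units after the background subtraction of the scanner software. A scaled level is the log2 of that signal minus the 75th percentile of the array, which was 10.30 with vehicle and 10.79 with IR-61. A difference is the scaled level with IR-61 minus that with vehicle, so the IR-61 array, brighter as a whole, can give a higher signal and a negative difference for the same probe. Of all genes, 16888 were well above background on both arrays, with a median difference of 0.10 and an SD across genes of 0.44. The expected SD of a difference comes from the spread between spots of probes printed several times, and covers noise within an array only. Of 10 macrophage markers, 9 had a named probe, *Csf1r* and *Adgre1* among them, and all 9 were well above background on both arrays, while no probe was named for *Cd68*. Among markers of other cells, *Adipoq* and *Epcam* were not above background on either array and no probe was named for *Ly6g*, while *Cd3e*, *Pecam1* and *Col1a1* were above background, at signals from 536 to 27148 with vehicle and from 897 to 58670 with IR-61. The largest of their differences was 0.62, for *Col1a1*, and their part in the values below was not tested.

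*Acod1* had by far the lowest difference of the group, and its upstream sequence is shown to place it beside that of *Gch1*, the member with the next lowest difference, and of *Cybb*, the member with the highest. Each sequence holds the 250 bases before the RefSeq start of the gene on GRCm38.p6, 5′ to 3′ on the strand of the gene. Capitals mark matches to 6 short motifs, searched on both strands. They were an NF-kB motif (GGGNNNNNCC), an interferon-stimulated response element or ISRE (GAAANNGAAA), a STAT or GAS motif (TTCNNNGAA), an AP-1 motif (TGANTCA), a PU.1 motif (AGAGGAA) and a TATA motif (TATAAA). The Acod1 sequence lies at chr14:103046762-103047011 on the plus strand, that of Gch1 at chr14:47189414-47189663 on the minus strand and that of Cybb at chrX:9469325-9469574 on the minus strand.
Acod1: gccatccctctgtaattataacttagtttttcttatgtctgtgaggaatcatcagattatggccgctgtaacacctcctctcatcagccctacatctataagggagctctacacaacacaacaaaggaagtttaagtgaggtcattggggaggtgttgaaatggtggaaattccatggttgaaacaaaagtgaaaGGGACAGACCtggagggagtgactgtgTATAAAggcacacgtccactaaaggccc
Gch1: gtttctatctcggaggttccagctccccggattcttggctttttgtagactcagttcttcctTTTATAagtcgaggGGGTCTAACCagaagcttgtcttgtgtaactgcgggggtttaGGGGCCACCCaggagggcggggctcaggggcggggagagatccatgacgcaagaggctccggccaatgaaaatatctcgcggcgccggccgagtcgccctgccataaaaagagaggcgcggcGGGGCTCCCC
Cybb: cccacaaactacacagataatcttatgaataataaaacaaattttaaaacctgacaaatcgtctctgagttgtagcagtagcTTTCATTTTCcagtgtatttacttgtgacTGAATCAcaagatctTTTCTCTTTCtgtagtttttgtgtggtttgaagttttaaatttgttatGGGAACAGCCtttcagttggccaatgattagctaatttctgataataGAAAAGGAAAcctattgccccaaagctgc

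The *Acod1* sequence held 1 match to the NF-kB motif, from 55 to 46 bases before the start, and 1 TATA match from 28 to 23 bases before it. That of *Gch1* held 3 stretches that match the NF-kB motif, the nearest ending at the start, and 1 TATA match on the opposite strand from 188 to 183 bases before it. The sequence of *Cybb* held 1 NF-kB match from 76 to 67 bases before the start, 3 ISRE matches and 1 AP-1 match. An upstream sequence was given for 7 of the 9 genes, the others being *Nos2* and *Ncf4*, and all 7 held the NF-kB letters, which 45.8% of the 32851 upstream sequences in the RefSeq table hold. The TATA letters were found in *Acod1*, *Gch1* and *Ch25h*, against 12.4% of all upstream sequences, and the ISRE letters in *Cybb* and *Ncf1*, against 2.98%. *Ncf1* also held the GAS letters, found in 7.02% of all sequences, and no member held the PU.1 letters, found in 8.55%. In *Ncf1* the GAS match overlaps the ISRE match. These matches describe letters and not binding.

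*Acod1*, the itaconate enzyme, was far lower in the IR-61-treated culture. Its probe is printed 10 times on each array. With vehicle the spots ranged from 6538 to 7402, with a median of 6988, and with IR-61 the 9 spots used ranged from 521 to 570, with a median of 544. One more IR-61 spot carried an outlier flag and was left out, and its signal of 504 lay below the others. The spots of the arrays did not overlap, and the lowest vehicle spot was 11.5 times as bright as the highest IR-61 spot used. The local background under these spots was between 16.5 and 24.0 on both arrays, so each array read the probe far above its surroundings.

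**Figure D1:**
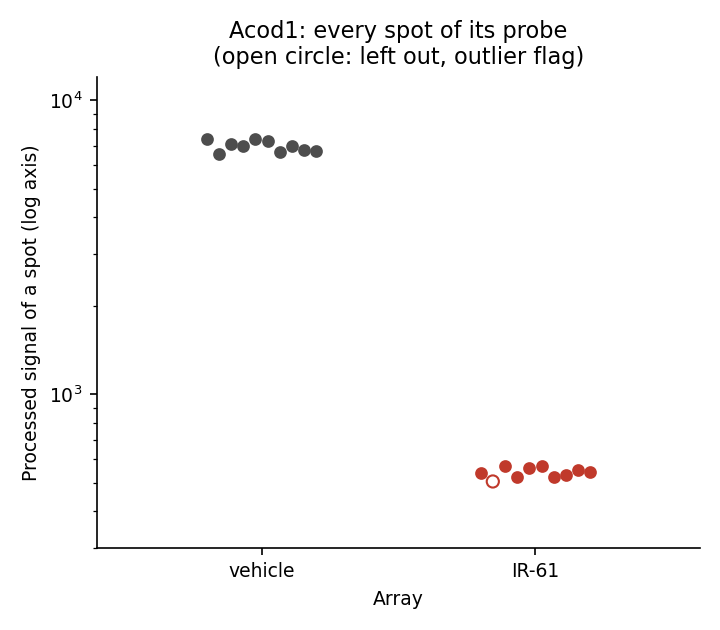
Processed signal of every spot of the Acod1 probe, by array (log axis); the open circle is the spot left out for its outlier flag. The vehicle spots sit between 6538 and 7402 and the IR-61 spots used between 521 and 570, with no overlap.

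On the scaled log2 scale the mean ± SD between spots of *Acod1* was 2.46 ± 0.06 with vehicle and −1.70 ± 0.05 with IR-61 (10 and 9 spots). The difference of −4.16 equals a 17.9-fold lower scaled signal, with an expected SD of 0.053. Before scaling the ratio of the signals was 0.0783, IR-61 over vehicle. *Acod1* had the lowest difference of all 16888 genes, and 3 genes lay nearest to it, *Il1b* at −3.78, *Spata13* at −3.64 and *Tnf* at −3.24, likeness being the size of the difference over 2 arrays and nothing more. Only 4 genes lay within 1 log2 unit of it. Among the 2750 genes whose vehicle signal was within 2-fold of that of *Acod1*, the middle 95% of differences lay between −0.77 and 0.80. In RNA of a whole culture, fewer expressing cells and less RNA per cell cannot be told apart.

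Of the 9 genes, *Acod1* was the only one past a 2-fold limit, as 1 lower gene and 0 higher genes. Over all measured genes 1.39% were lower by 2-fold or more and 1.99% were higher, and since the group was chosen with these values known, nothing is read from its own count. The split of all genes past the limit turned with the scaling, 41.2% of them being lower here and 54.2% with scaling by the median. The median difference of the 9 genes was −0.13, and without *Acod1* the remaining 8 had a median of −0.12, within a range from −0.59 to 0.40. Against the median of all measured genes, 6 of the 9 were lower and 3, *Nos2*, *Ass1* and *Cybb*, were higher.

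**Figure D2:**
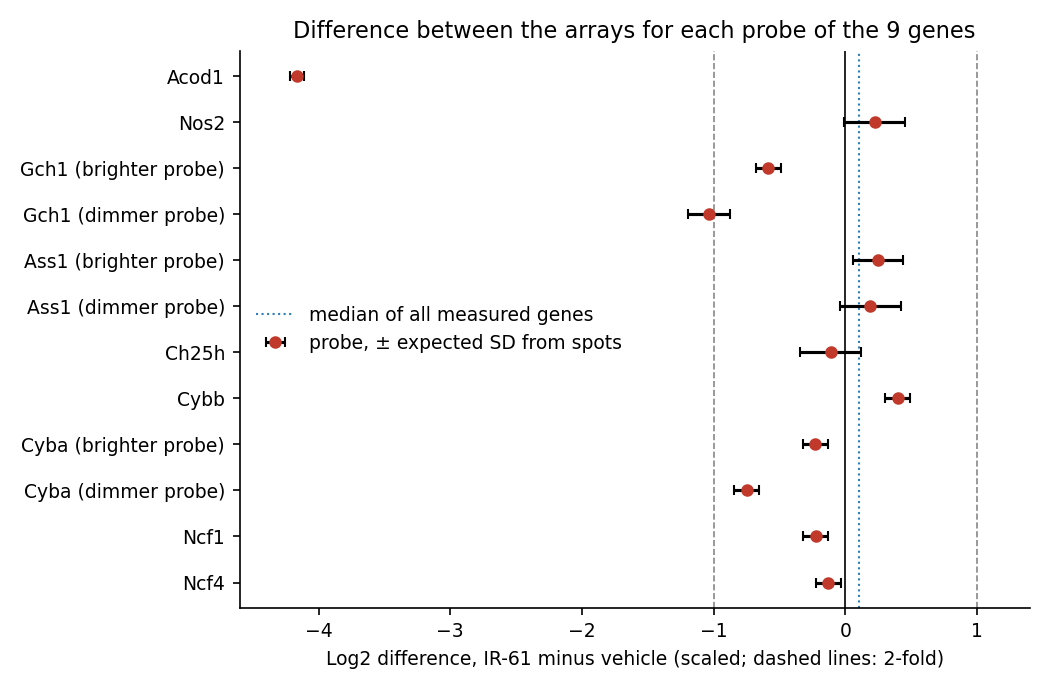
Log2 difference, IR-61 minus vehicle after scaling, of each of the 12 probes; bars show ± the expected SD from the spread between spots, dashed lines 2-fold and the dotted line the median of all measured genes. Acod1 lies at −4.16, the dimmer Gch1 probe at −1.03, and the other 10 probes within 2-fold.

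*Nos2*, the nitric oxide synthase of activated macrophages, did not share the low value of *Acod1*. Its single spot read 115 with vehicle and 189 with IR-61. Both signals are low for the array, although well above background. The difference was 0.22, no larger than the expected SD of 0.231 from the noise between spots. Without scaling it was 0.71, larger than that SD. Of all measured genes 35.9% had a difference as high or higher. As many as 3621 genes lay within 0.1 of it, the nearest being *Mpzl1*, *Rhobtb2* and *Fam160a2*, each also at 0.22.

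*Gch1*, which supplies the cofactor of *Nos2*, had the second lowest value of the group. The array holds 2 probes for it. The brighter read 29658 with vehicle and 27711 with IR-61, a difference of −0.59 with an expected SD of 0.095, and the dimmer read 1438 and 985, a difference of −1.03 with an expected SD of 0.162. Each of these scaled differences was over 6 times its expected SD. Before scaling both probes were also dimmer with IR-61, at 0.934 of the vehicle signal for the brighter and 0.685 for the dimmer. Without scaling the brighter was thus at only −0.10, about the size of its expected SD. The dimmer probe passed the 2-fold limit, at 2.05-fold lower, and the brighter did not, its scaled IR-61 level being 0.666 of that with vehicle. The probes differed from each other by 0.45 with an expected SD of 0.187. Of all measured genes 5.65% were as low as the brighter probe or lower. The difference of *Nos2* was 0.81 above that of *Gch1*, with an expected SD of 0.25.

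*Ass1*, which returns citrulline to the arginine pool, stood on the side of *Nos2*. Its brighter probe read 791 with vehicle and 1318 with IR-61, a difference of 0.25 with an expected SD of 0.190. The dimmer probe read 337 and 539, a difference of 0.19 with an expected SD of 0.231. The probes thus gave the same sign and differed by 0.06, well within the noise between spots, and neither moved by 2 expected SDs, although without scaling the brighter was at 0.74. *Ch25h*, the oxysterol enzyme, was read by 1 spot at 136 with vehicle and 177 with IR-61. Its difference of −0.11 was within the expected SD of 0.231 and, without scaling between the arrays, was 0.38.

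**Figure D3:**
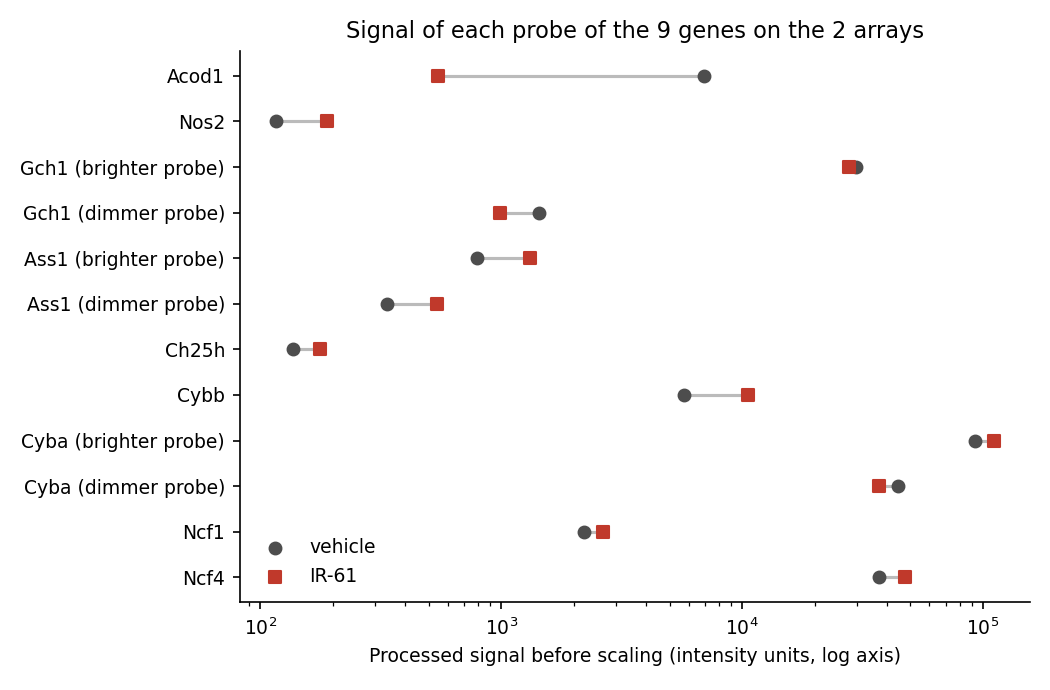
Processed signal before scaling of each probe with vehicle (circles) and with IR-61 (squares), on a log axis; signals of different probes are not comparable with each other. Acod1 goes from 6972 to 546, and the remaining probes show much smaller steps on an IR-61 array that is brighter as a whole.

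The NADPH oxidase subunits were all read at high signals and stayed within 2-fold, with differences of the 4 genes from −0.23 to 0.40. *Cybb*, the catalytic gp91phox, had the highest value of the 9 genes. Its spot read 5745 with vehicle and 10611 with IR-61, a difference of 0.40, or 1.32-fold higher, which is 4.19 times its expected SD of 0.095. Such a value was not rare on these arrays, as 20.1% of all measured genes were as high or higher.

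*Cyba*, whose product p22phox forms the membrane core with gp91phox, lay on the other side of 0. The brighter of its 2 probes read 92708 with vehicle and 111048 with IR-61, a difference of −0.23 with an expected SD of 0.095, and the dimmer read 44430 and 37055, a difference of −0.75. The raw signals of these probes thus moved in opposite directions, and their differences were 0.52 apart with an expected SD of 0.134. The difference of *Cybb* was 0.62 above that of the brighter *Cyba* probe, with the same expected SD. Without scaling, *Cyba* by its brighter probe was 0.26 and *Cybb* 0.89, so the sign of *Cyba* depends on the scaling. Leaving out the scaling adds the same amount to every gene and cannot change their order.

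The cytosolic subunits were close to the brighter *Cyba* probe, and the dimmer one, at −0.75, was lower than both. *Ncf1* read 2198 with vehicle and 2634 with IR-61, a difference of −0.23, and *Ncf4* read 37112 and 47539, a difference of −0.13, each with an expected SD of 0.095. Without scaling both were above 0, at 0.26 and 0.36. *Ncf4* was thus nearest to 0 among the oxidase genes on the scaled values, and 26.8% of all measured genes were as low or lower. Relative to the median of all measured genes, *Cyba*, *Ncf1* and *Ncf4* were below it and *Cybb*, *Nos2* and *Ass1* above it, also with quantile normalization, loess, normexp and the deposited values, which do not move all genes alike.

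**Figure D4:**
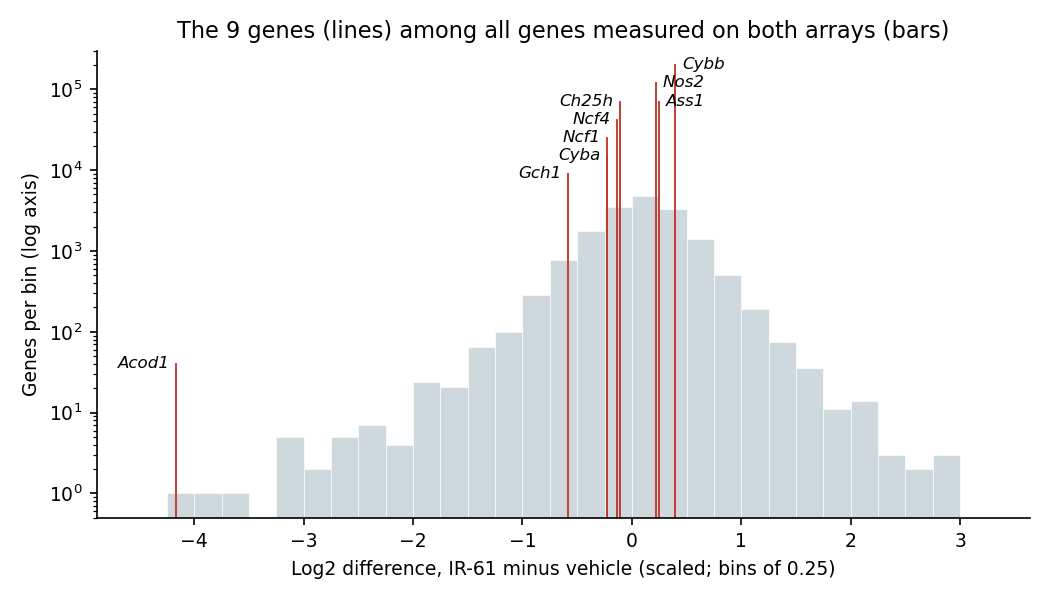
Number of genes per bin of the log2 difference, IR-61 minus vehicle after scaling (bars, log axis, 16888 genes), with the 9 genes as lines. Acod1 lies at the lower end of the distribution, at −4.16, and the other 8 lie within its body, between −0.59 and 0.40.

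Other genes of the same pathways were taken from fixed lists, each gene by its brightest probe. Of 56 such genes, 52 were well above background on both arrays, with a median difference of −0.04, and 2 were lower and 1 was higher by 2-fold or more, against 1.39% and 1.99% of all measured genes. With so few genes past the limit, nothing is read from these counts or from those of the single lists. Around nitric oxide, 2 of 15 measured genes were lower by 2-fold or more and 0 were higher, with a median of −0.07. They were *Arg2*, the mitochondrial arginase, which read 130 with vehicle and 67.8 with IR-61, a difference of −1.43, and *Slc7a1*, a cationic amino acid transporter that takes up arginine, which read 5104 and 2801, a difference of −1.35. Other arginine genes of the list were within 2-fold, with the transporter gene *Slc7a2* at −0.01, the cytosolic arginase *Arg1* at −0.29 and *Asl*, which acts after *Ass1*, at −0.58. Without scaling *Arg1* was at 0.20. Without scaling *Arg2* and *Slc7a1* were within 2-fold, at −0.94 and −0.87, and with normexp background correction *Arg2* was at −0.81. The highest in the list was *Ddah1*, an enzyme that degrades methylarginine inhibitors of nitric oxide synthase, at 0.40 by its brighter probe. A second *Ddah1* probe was above background with IR-61 only, at 13.4 with vehicle and 44.7 with IR-61. Its difference was 1.25, or 2.37-fold, with an expected SD of 0.507. That is past the limit but rests on a vehicle signal not above background. The brighter probe was also dim, at 24.8 and 45.9, and with normexp *Ddah1* was at 0.06. The remaining enzymes of tetrahydrobiopterin synthesis after *Gch1* were *Pts*, at −0.14, and *Spr*, at −0.60.

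For the NADPH oxidases, 10 of 14 genes were measured on both arrays, with a median of 0.01, and 0 were lower and 1 was higher by 2-fold or more. The higher gene was *Nox1*, the catalytic subunit of another NADPH oxidase, which read 36.0 with vehicle and 157 with IR-61, a difference of 1.64 with an expected SD of 0.401. A second *Nox1* probe was not above background on either array, and with normexp the difference was 0.81. The lowest was the proton channel gene *Hvcn1*, at −0.39, which was 0.10 without scaling. A second probe of *Nox4* was above background with IR-61 only and at least 1.56-fold higher there, while the brighter one gave 0.03.

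No gene passed the 2-fold limit by its brightest probe in the remaining lists. Among 8 genes around itaconate and succinate, with a median of 0.03, the highest was the exporter gene *Abcg2*, at 0.42. The 6 oxysterol genes had a median of −0.15 and ran from −0.61 for *Gpr183*, a receptor for oxysterols derived from 25-hydroxycholesterol, to 0.23 for the liver X receptor gene *Nr1h2*. The 5 genes that dispose of superoxide, hydrogen peroxide or nitric oxide adducts had a median of 0.26, between −0.57 for the mitochondrial *Sod2* and 0.41 for *Adh5*. The 8 transcription factor genes, all of them known for macrophage gene control, had a median of −0.28, with 7 below 0, against 38.8% of all measured genes. *Spi1*, which encodes PU.1, was lowest at −0.83, and without scaling 5 of those 7 were above 0. A dimmer probe of *Nfkb1*, an NF-kB subunit, was at −1.25, past 2-fold, and the brighter at −0.27.

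**Figure D5:**
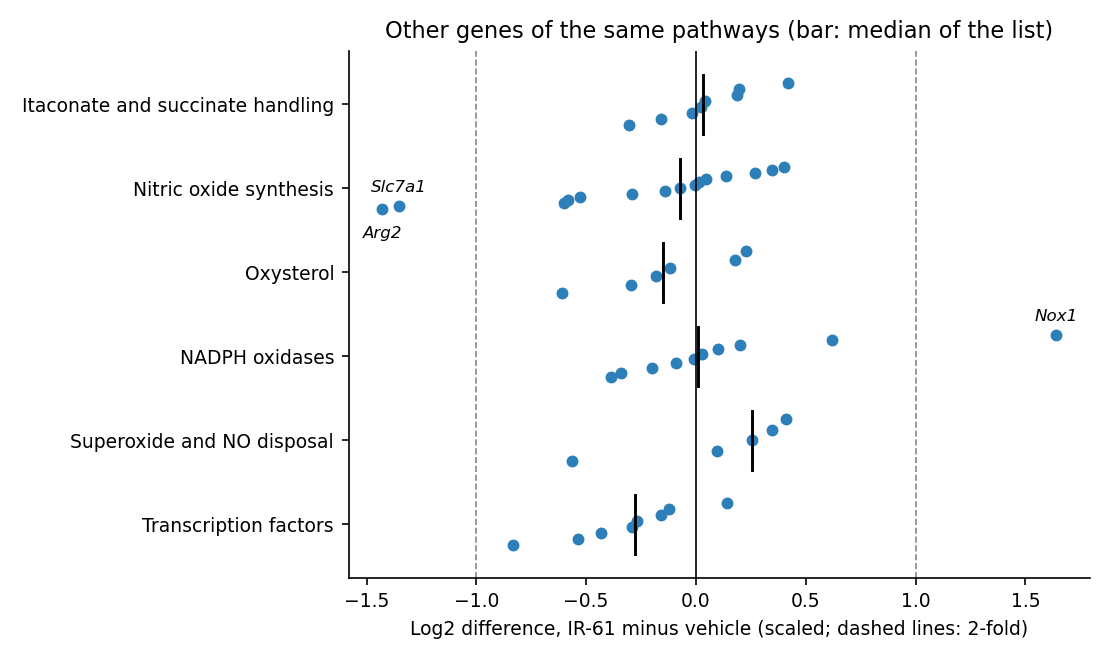
Log2 difference, IR-61 minus vehicle after scaling, of the 52 other pathway genes measured on both arrays, by list; black bars are list medians and dashed lines 2-fold. Arg2 at −1.43, Slc7a1 at −1.35 and Nox1 at 1.64 lie outside 2-fold.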

How the data were processed

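The authors hybridized Cy3-labelled RNA of each culture to 1 array and deposited the intensity of every spot, background-subtracted and detrended within the array by Agilent Feature Extraction (version 11.0.1.1 per the file headers, 11.0.0.1 in the submitters' processing notes), with 0/1 flags per spot. A second deposited table, of log2 values by probe, has equal quartiles in both columns and was made by a method not given in the sources used here. It served as an alternative. The number of arrays limits the precision.

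Controls and outlier-flagged spots were removed, the log2 intensities of each probe were averaged over its spots, and each array was scaled by subtracting its 75th percentile. No spot was saturated. Gene names, found for 27224 of 39419 probes, came from the unversioned RefSeq accession looked up in a GRCm38.p6 table, with no coordinates taken from it for probes, since the array was designed on a different build. A gene took its brightest probe, and counts past 2-fold use genes well above background on both arrays. A probe above background on 1 array only had its dim side set to the lowest signal among probes above background on that array. Where its own dim signal was higher, that signal was used. Either value is an estimate and not a strict bound, since a probe not above background can exceed that lowest signal. The SD between spots was pooled over probes with at least 5 spots in 3 ranges of log2 signal (under 6, 6 to 10 and over 10). The steps were tested on simulated arrays.

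The genes and lists were chosen with earlier results of these data known. The named genes are the 9 genes, the lowest and highest of each pathway list with every gene past 2-fold, and the 3 genes closest to *Acod1* and to *Nos2*. *Pts*, *Spr*, *Slc7a2*, *Arg1*, *Asl* and the second probes of *Ddah1*, *Nox4* and *Nfkb1* were added after their values were seen. Most genes of the lists are given only in the totals, and some that this rule would name are not reported here. Upstream sequences are from RefSeq on GRCm38.p6. The alternatives were 5 other scalings (none, loess, quantile normalization, the median, and the 75th percentile of detected probes), the deposited values, normexp with an offset of 50, the mean over probes, outlier spots kept, no filter on dim probes and a 3-fold limit. For normexp, 4 spots of the IR-61 array with a local background above their signal were given the median background, a choice made after seeing the data. The software was R 4.3.3 (limma 3.58.1) and Python 3.11.15 (pandas 2.3.3, numpy 2.4.6, matplotlib 3.10.9).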

Additional observations from a re-analysis of the deposited data

How the results depend on the processing

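No paired analysis was possible because vehicle and IR-61 were read on 1 array each and share a single replicate number. The number of the 9 genes past 2-fold, 1 lower and 0 higher, was the same under all 10 alternatives and with a 3-fold limit, and *Acod1* lay between −4.25 and −3.68. Without scaling, the all-gene median went from 0.10 to 0.59, and with it the median of the 9 genes from −0.13 to 0.36, *Cyba* to 0.26, *Ncf1* to 0.26 and *Ncf4* to 0.36, all above 0, a shift that follows from the construction of that setting. Under the other 9 alternatives the median of the 9 genes was between −0.21 and −0.13. Relative to the median of all genes, 6 of the 9 were lower with quantile normalization, loess, normexp, the deposited values and the mean over probes, while the other scalings shift all genes alike and could not change this count. With the mean over probes *Gch1* was −0.81 and *Cyba* −0.49. Of 90 values of single genes, 76 moved by no more than their expected SD. Part of these could not move, so the count does not measure stability. Dropping the filter on dim probes leaves all 9 genes as they were. The mean over probes can change only the 3 genes with several probes. Over all genes, 235 were lower and 336 higher by 2-fold or more, 72 and 2156 without scaling, 136 and 125 with normexp, and 440 and 921 without the filter on dim probes. The lower share of these, 41.2%, was 54.2% with scaling by the median, 52.1% with quantile normalization and with normexp, 52.2% with loess, 51.4% with the deposited values and 3.23% without scaling.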

Other observations

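*Adgre1*, which encodes the macrophage surface protein F4/80, was the 1 macrophage marker past 2-fold, at 52489 with vehicle and 149992 with IR-61, a difference of 1.03, and its second probe gave 0.85. It was within 2-fold under 3 of 10 alternatives. Of the 9 macrophage markers measured, 6 were below 0 and 3 above on the scaled values, with a median of −0.09. Over all measured genes 1.99% were higher by 2-fold or more, so nothing is read from this 1 marker.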
